A study of Mus musculus with 8 samples.

Results

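Isolated narrow clusters without a gene are CAGE tag clusters that span under 10 bp, carry no gene symbol in the authors' table, and lie more than 5000 bp from every cluster that does carry one, on either strand. There were 19665 of them among the 84475 distinct clusters of the series (23.3%). They made up 51.6% of the 38099 clusters without a gene and 70.7% of the 27809 narrow clusters without a gene. The rule used the deposited span, gene symbol and position of each cluster, so none of these properties is a finding about the set.

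The catalogue came from 8 mice of strain C57BL/6, whose facial skin was taken on postnatal day 28. Per the labels, lesional skin came from 4 mice with floxed Ikk2, Ikk2FL/FL, and a Cre transgene (written Nectin-cre in the genotypes and Nestin-cre in the design text), and non-lesional skin came from 4 mice whose genotype is given only as control. Ikk2 is a kinase that activates NF-κB. Lesion and genotype cannot be told apart in this design, and nothing in the labels says in which cells of these mice the Cre was active or which alleles the controls carried. The 8 columns of values in the table have names that match no label of a mouse. They were not used, so the level of these clusters, the number of libraries in which each was seen, the depth of the libraries and any difference between lesional and control skin were not analysed here. What follows describes where the clusters lie.

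CAGE (cap analysis of gene expression) captures RNA by its 5′ cap and reads the first bases, so that each tag marks the place where a capped RNA begins. Tags at neighbouring bases are joined into clusters, and a promoter with a sharp start gives a narrow cluster while a dispersed one gives a wide cluster. Outside promoters, CAGE tags are known to fall at active enhancers, at unannotated transcripts, and within the exons of abundant messenger RNAs. All positions below are on mouse build mm9, written as in the deposited table, and spans are the difference between the end and the start of a cluster. Sequences of these clusters were not analysed here.

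All 20 marker genes reported here for the cell types of skin had a cluster of their own in the catalogue. They were the 5 keratinocyte markers (Krt5, Krt14, Krt1, Krt10 and Trp63), the 4 of fibroblasts, the 3 of melanocytes, the 2 of endothelium, the 3 of skeletal muscle, the 2 of macrophages and the T cell gene Cd3e. A cluster under a symbol shows neither the level of the gene nor which mice it came from.

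Most isolated narrow clusters spanned 2 or 3 bp. A span of 2 bp, the smallest in the set, was recorded for 11471 of them (58.3%), a span of 3 bp for 3823 (19.4%) and a span of 4 bp for 1635 (8.31%). The remaining 5 to 9 bp classes held between 329 and 955 clusters each. Narrow clusters without a gene that lay near a gene cluster had a span of 2 bp in 50.8% of cases, and narrow clusters with a gene in 43.9%. At the limit of the rule, 428 members had a span of 9 bp, and just past it 320 isolated clusters without a gene had a span of 10 bp. Of the members, 9596 were on the plus strand (48.8%) and the other 10069 on the minus strand, and the 22420 narrow clusters with a gene had the same split (48.7% on the plus strand).

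**Figure D1:**
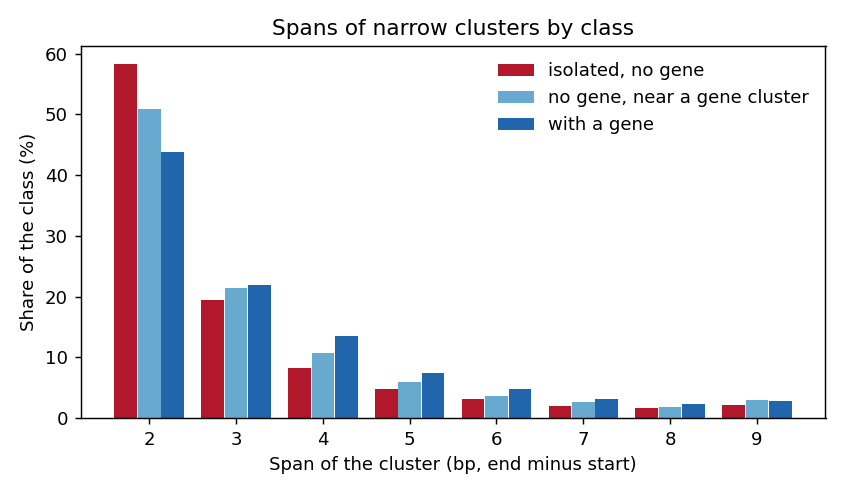
Share of each class (y axis, %) with a given span (x axis, bp, end minus start) for isolated narrow clusters without a gene (red), narrow clusters without a gene near a gene cluster (light blue) and narrow clusters with a gene (dark blue). The 2 bp class holds 58.3% of the isolated clusters, 50.8% of those near a gene cluster and 43.9% of those with a gene.

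The median isolated narrow cluster lay 24653 bp from the nearest cluster with a gene, with quartiles of 11895 and 55838 bp. At 15870 of the 19665 clusters (80.7%) that distance was over 10000 bp, at 2456 (12.5%) over 100000 bp, and at 129 (0.656%) over 1000000 bp. Isolated clusters of 10 bp or more without a gene, of which there were 6023, lay at distances with a median of 24470 bp and quartiles of 11715.5 and 57618 bp. Just inside the limit on distance, members lay 5002 bp from a cluster of Chmp4b on chromosome 2, 5003 bp from a cluster of Cul3 on chromosome 1 and 5006 bp from a cluster of Tle3 on chromosome 9. The narrow clusters that the limit only just left out lay 5000 bp from a cluster of Pitpnc1 on chromosome 11, 4998 bp from a cluster of Tagln2 on chromosome 1 and 4998 bp from a cluster of Mga on chromosome 2.

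The strand of the nearest gene cluster was not part of the rule, and isolated narrow clusters mostly shared it. For 15752 of 19665 (80.1%) the nearest cluster with a gene was on the same strand. In 11623 cases (59.1%) that gene cluster lay upstream in the direction of transcription, so that the isolated cluster followed a named start on its own strand. It lay downstream on the same strand in 4129 cases (21.0%), upstream on the opposite strand in 1534 (7.80%) and downstream on the opposite strand in 2379 (12.1%). Isolated wide clusters had the upstream same-strand arrangement in 50.4% of cases and shared the strand in 74.3%. Narrow clusters without a gene near a gene cluster, leaving out those that overlapped one, had it in 54.7% and shared the strand in 70.3%. These are shares of neighbouring and often adjacent clusters, which are not replicates, and the differences between the classes were not tested.

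The same-strand share of isolated narrow clusters was lower at larger distances, again without a test. Between 5000 and 10000 bp from a gene cluster, 86.3% of isolated narrow clusters were on its strand and 64.3% were downstream of it on that strand. Between 20000 and 50000 bp the same-strand share was 79.8%, and beyond 100000 bp it was 68.5%, with 48.0% downstream on that strand. For isolated wide clusters beyond 100000 bp, 56.9% shared the strand and 33.3% lay downstream of the gene cluster on that strand.

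**Figure D2:**
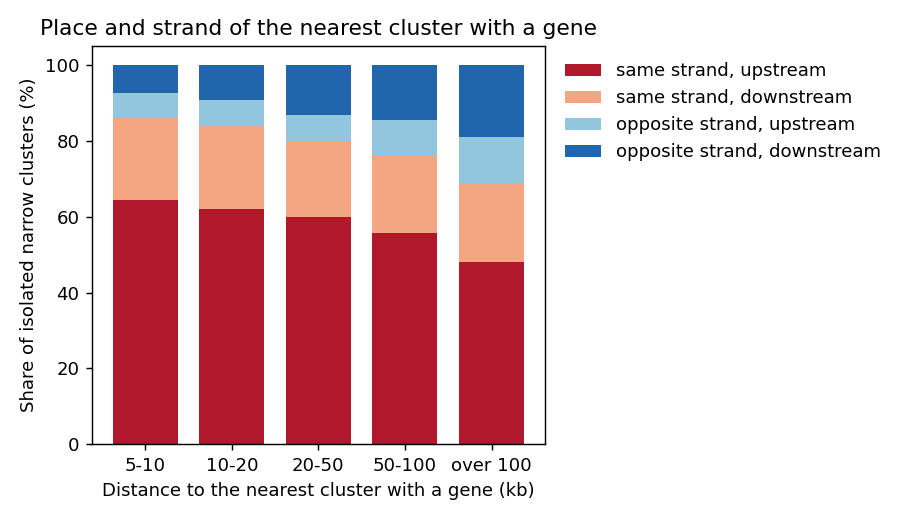
Share of isolated narrow clusters (y axis, %) by the place and strand of the nearest cluster with a gene (colours), for 5 classes of distance to it (x axis, kb). The share with that gene cluster upstream on the same strand is 64.3% at 5 to 10 kb and 48.0% beyond 100 kb.

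Some isolated clusters were enclosed by a single gene. The nearest gene clusters on the left and on the right shared a gene symbol for 1952 members (9.93%), spread over 574 genes. Of these 1952, 1879 (96.3%) were on the strand of the flanking clusters and 73 (3.74%) were on the opposite strand. Isolated wide clusters enclosed in this way numbered 518, and 488 of them (94.2%) were on the strand of the flanking clusters. Of the 8144 narrow clusters without a gene within 5000 bp of a gene cluster, here including those that overlapped one, 1759 lay between clusters of the same gene. Of these 1759, 59.8% were on the strand of the flanking clusters. These differences were not tested. The genes with the most enclosed members were Macf1 with 48 (a giant linker of actin and microtubules), Efna5 with 39 (an ephrin ligand), Pdzrn3 with 38 and Sox5 with 29 (a transcription factor). Ttn, the gene of the sarcomere protein titin, followed with 28, Slit3, a secreted guidance ligand, with 26, Neb, the gene of the thin filament protein nebulin, with 24, and Mitf, the master regulator of melanocytes, with 23. These genes, and those ranked by count below, were chosen after their values were seen.

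Where the flanking genes differed, RefSeq gene order (assembly GRCm38.p6, used for order and names only) told whether other genes lie between them. Both flanking genes were matched, in the same order, for 16539 members. No RefSeq gene lay wholly between the flanking genes for 7772 of these (47.0%), non-coding genes or pseudogenes alone lay there for 4806 (29.1%), and at least 1 protein-coding gene lay there for 3961 (23.9%). No mm9 annotation was used, so whether a member lies in an exon, in an intron or between genes was not analysed here, and a member with no RefSeq gene between its flanking genes may lie inside one of them. A protein-coding gene in such a gap had no cluster under its symbol between the flanking clusters. The flanks of 869 members could not be matched, the order was not kept for 192, and 113 had no gene cluster on a side of the chromosome.

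Taking the nearest gene cluster upstream on the same strand for every member, at any distance, gave 6337 genes, or 39.4% of the 16094 symbols of the catalogue. Only 67 members had none. The median distance to that upstream cluster was 37976.5 bp, and 14606 members (74.3%) had it within 100000 bp. The spread over genes was uneven, with 2724 genes preceding exactly 1 member and 322 preceding 10 or more. A cluster that follows a gene cluster on its strand is not shown to belong to that gene.

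The ranking that follows covers only the genes with the most members within 100000 bp. The numbers given for these genes count members at any distance. The largest followed Ttn (146 members), Cux1 (60), Dsp and Samd5 (57 each) and Macf1 (52). Within 100000 bp, Cux1 preceded only 27 and Samd5 only 20, at a median over all its members of 647291 bp. All members after Dsp and Macf1 lay within 100000 bp. The Ttn members lay 5144 to 120807 bp away, with 118 of them within 100000 bp. Neb preceded 33 and Myh4, a fast skeletal myosin heavy chain, preceded 21, all within 7187 to 17649 bp of a Myh4 cluster. Dsp, the gene of the desmosome linker desmoplakin, preceded its 57 members by 6993 to 19146 bp. Ppl, which encodes the cornified envelope protein periplakin, preceded 35 members, and Plec, which encodes the hemidesmosome linker plectin, preceded 22. Perp, a desmosome component of stratified epithelia, preceded 27, and Pkp1, the gene of plakophilin 1, preceded 17. These genes were picked for their known roles after the counts were seen, and no group of genes was tested.

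Outside these genes, and again at any distance, Nfib preceded 48 members (21 of them within 100000 bp), Pdzrn3 46 (38 within), Maml3 44 (27 within) and Efna5 40 (23 within). Ankrd11 also preceded 40, all within 100000 bp. Ext1, a gene of heparan sulfate synthesis, preceded 39 (18 within 100000 bp), Bnc2 38 (20 within), Mcc 34 (23 within) and Prrc2c 33 (32 within). Genes with most of their members farther than 100000 bp away may be missing from this ranking. Arl15 is not in it, although 39 of the 42 members between Arl15 and Ndufs4 were on its strand. Some genes with a known role in skin, picked for that role and not for their rank, follow. Tchh, the gene of trichohyalin in the inner root sheath and hair medulla, preceded 28 members, all between 5030 and 6574 bp away. Krt77, a keratin of the eccrine sweat duct in human skin, preceded 25 at 5287 to 10156 bp, and Krt71, an inner root sheath keratin, preceded 14 at 5761 to 8372 bp. Scd1, a fatty acid desaturase of sebocytes, preceded 35 members, of which 33 were within 100000 bp. Trp63, the master regulator of stratified epithelia, preceded 31 at 19155 to 151667 bp, with a median of 47209 bp. Gata3, a factor of the inner root sheath and of T cells, preceded 22. Egfr, the receptor of epidermal growth factor, preceded 29 at a median of 52386 bp, and Cux1, a homeodomain factor, preceded its 60 at a median of 109600 bp. The median distance after Tchh was 5432 bp. Keratin genes and myosin genes have related copies, and how the authors placed reads shared between copies is not known, so counts beside them are uncertain.

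Among the skin marker genes given above, 15 of 20 preceded at least 1 isolated narrow cluster, for 231 members in all, against 39.4% of all symbols of the catalogue. The markers are few and picked, and this difference was not tested. Skeletal muscle markers accounted for 167, from Ttn and Myh4, whereas Acta1, the skeletal actin gene, preceded none. Keratinocyte markers accounted for 35, of which 31 followed Trp63, 2 followed Krt5, and 1 each followed Krt14 and Krt1. Krt10, with 13 clusters of its own, preceded none. Fibroblast markers accounted for 19, with 13 after Col1a1 and 3 each after Col1a2 and Dcn, and none after Pdgfra. Melanocyte markers accounted for 6, endothelial markers for 3 and macrophage markers for 1, at 214456 bp from Csf1r. Cd68, the other macrophage marker, and the T cell marker Cd3e preceded none. Krt14 had 28 clusters of its own and 1 isolated cluster downstream, while Trp63 had 3 of its own and 31 downstream. No gene length was used in these counts. The rule keeps members over 5000 bp from every gene cluster, so a short gene, or one with closely spaced clusters, leaves little room for a member within it. Contrasts between marker genes therefore follow in part from the rule, and the counts are not directly comparable.

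Isolated narrow clusters were unevenly spaced along the chromosomes. The median gap between neighbouring members was 16322 bp, with quartiles of 2164.25 and 83860.5 bp. Another member lay within 1000 bp, on either strand, for 5986 members (30.4%), and for 6791 (34.5%) the adjacent clusters of the whole catalogue on both sides were also members. The rule keeps gene clusters over 5000 bp away from members, so the share of 34.5% follows in part from the rule. It was not set against another class. Grouped by gaps of at most 1000 bp, 13679 members stood alone, and the others formed 2272 runs, of which 1606 were pairs and 136 held 5 or more. Those 136 runs contained 1058 members (5.38%). Isolated wide clusters had another of their class within 1000 bp in 26.1% of cases, narrow clusters without a gene near a gene cluster in 49.0%, and narrow clusters with a gene in 76.6%. The classes differ in size, and the rule bars members from the 5000 bp around gene clusters, so these shares are not directly comparable. An isolated wide cluster lay within 1000 bp of 3082 members (15.7%).

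Neighbouring members were mostly on the same strand, which the rule did not require. Of 3714 neighbouring pairs within 1000 bp, 3553 (95.7%) shared a strand, and of the 136 runs of 5 or more, 123 (90.4%) were on a single strand. Within 1000 bp, 95.4% of neighbouring pairs shared a strand among narrow clusters with a gene, 92.7% among narrow clusters without a gene near a gene cluster and 86.9% among isolated wide clusters, so a high share at this distance was found in each class. Among members, same-strand pairs made up 97.4% of the 1430 pairs no more than 100 bp apart, 92.5% of the 2970 pairs between 1000 and 5000 bp apart and 88.2% of the 3753 pairs between 5000 and 20000 bp apart. They made up 70.6% of the 4782 pairs between 20000 and 100000 bp apart and 52.2% of the 4425 pairs farther apart. For narrow clusters with a gene the share between 5000 and 20000 bp was 69.5%, and for isolated wide clusters it was 82.8%. These differences were not tested. Opposite-strand pairs at most 400 bp apart numbered 102 of 2580, with 64 divergent (minus strand first) and 38 convergent.

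**Figure D3:**
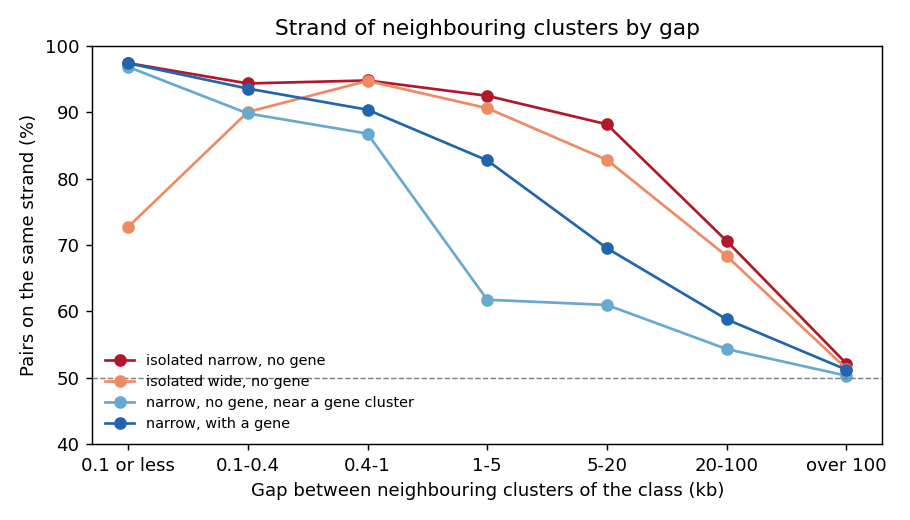
Share of neighbouring pairs on the same strand (y axis, %, starting at 40; the dashed line marks 50%) by the gap between them (x axis, kb) for 4 classes of cluster. Isolated narrow clusters (red) are at 88.2% for gaps of 5 to 20 kb and reach 52.2% beyond 100 kb.

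Larger runs lay closer to gene clusters than lone members did, a difference that was not tested. Members in runs of 5 or more had the nearest gene cluster upstream on the same strand in 64.0% of cases, those in runs of 2 to 4 in 59.8% and those alone in 58.5%. The median distance to a gene cluster was 13848.5 bp in runs of 5 or more, 21132.5 bp in the smaller runs and 27121 bp for lone members. A span of 2 bp was recorded for 52.1%, 59.6% and 58.4% of these sets in the same order.

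The largest run held 50 members, all on the plus strand, in a stretch of 6864 bp of chromosome 13 (38283278 to 38290142) between the gene clusters of Dsp, 12284 bp to the left, and Snrnp48, 6623 bp to the right. Both flanking clusters were on the plus strand too, and no RefSeq gene lies wholly between the 2 genes, which leaves unsaid whether the run lies inside either of them. The median gap within the run was 57 bp, and 15 isolated wide clusters lay among its members, also all on the plus strand.

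The run with the second largest number was the densest of the 5 largest, with 29 members in 1546 bp of chromosome 3 (93251380 to 93252926) between Tchh and Tchhl1, both on the plus strand. Of these, 28 were on the plus strand, and the first followed Tchh by 5030 bp, close to the limit of the rule. The median gap was 21.5 bp.

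A run of 25 members lay on the minus strand of chromosome 16 from 5088051 to 5089794, between Ubn1 and Ppl. The Ppl cluster, on the same strand, was 42672 bp upstream, while the Ubn1 cluster lay 37251 bp away on the opposite strand. Another run of 25 spanned 3870 bp of the minus strand of chromosome 19, from 44469340 to 44473210, and followed Scd1 by 8511 bp, with Scd4 61444 bp away on the opposite strand. The fifth run held 21 members on the minus strand of chromosome 15 from 101689386 to 101692149, inside the type II keratin genes. Krt77 lay 7395 bp upstream and Krt1 8124 bp downstream, both on the minus strand. In all 5 runs, the gene pairs that flank the run are neighbours in RefSeq order, and the flanking gene cluster on the upstream side was on the main strand of the run.

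**Figure D4:**
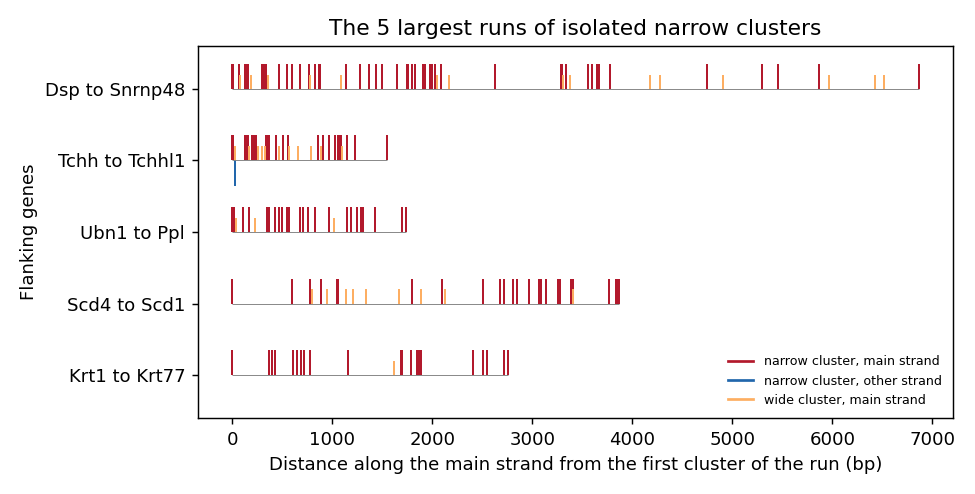
Positions of clusters in the 5 largest runs, as distance along the run's main strand from its first cluster (x axis, bp), with the flanking genes named on the y axis. Tall red ticks are narrow clusters on the main strand, the blue tick below the line is the 1 narrow cluster on the other strand, and short orange ticks are isolated wide clusters. The run between Dsp and Snrnp48 extends over 6864 bp and the one between Tchh and Tchhl1 over 1546 bp.

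A mixed run was also present. On chromosome 13 from 85266580 to 85267083, 11 members lay within 503 bp, 6 of them on the plus strand, with the nearest gene cluster (Ccnh) 61905 bp away. This region, named after its values were seen, was the only mixed one among the 22 runs of 10 or more apart from the run between Tchh and Tchhl1.

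Counted by the interval between neighbouring gene clusters in place of a fixed gap, 6253 intervals held at least 1 member and 1167 held 5 or more. These 1167 contained 10401 members (52.9%), and 692 of the 1167 intervals (59.3%) had members on 1 strand only, a share that was not set against chance. The fullest interval lay between Plekha3 and Ttn on chromosome 2, where 118 members in 150174 bp were all on the minus strand, as is the Ttn cluster that precedes them. All 60 members between Sh2b2 and Cux1 on chromosome 5, all 57 between Sash1 and Samd5 on chromosome 10 and all 48 between Gm5860 and Nfib on chromosome 4 were on the minus strand. Between Agfg1 and Ccl20 on chromosome 1, 33 of 51 members were on the plus strand and 18 on the other. Between Trp63 and Leprel1 on chromosome 16, 31 of 33 members were on the plus strand, that of Trp63. Relative to length, the interval between Dsp and Snrnp48 was the fullest of the 25 with the most members, at 198 members per 100 kb, and the one between Krt1 and Krt77 held 137 per 100 kb.

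The members farthest from any gene cluster were chosen by distance, so the intervals that hold them had to be long. The density of members in these intervals was not set against other intervals. The 4 farthest all lay between Cdh6 and Basp1 on chromosome 15, at 19426557 to 19426559 on the plus strand (5916839 bp from the nearest gene cluster), 18695167 to 18695175 on the plus strand, 20134046 to 20134048 on the plus strand and 21036542 to 21036544 on the minus strand. That interval of 12239941 bp held 11 members, of which 7 were on the minus strand, and in RefSeq order it holds 54 genes, among them those of the cadherins Cdh9, Cdh10, Cdh12 and Cdh18. The fifth, 4291741 bp from the nearest gene cluster, lay between Pcdh20 and Dach1 on chromosome 14, where 11 members were found in 9697162 bp, 9 of them on the minus strand.

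Over the 20 chromosomes with at least 100 clusters, isolated narrow clusters made up between 18.1% and 28.4% of all clusters. The share was highest on chromosomes 18 (693 of 2436, 28.4%), 12 (826 of 2951, 28.0%) and 16 (803 of 2885, 27.8%). It was lowest on chromosomes 11 (1324 of 7332, 18.1%), 17 (693 of 3779, 18.3%) and 7 (1160 of 6304, 18.4%). Per Mb of chromosome covered by clusters the order was different, with the most members on chromosome 11 (11.1 per Mb) and, next, on chromosome 19 (10.6 per Mb). Spearman's rho across the 20 chromosomes was -0.69 between the share of members and the density of gene clusters, and 0.70 between the density of members and that of gene clusters. Both quantities come from the same catalogue, and a cluster near a gene cluster cannot be a member, so these values are descriptions. The Y chromosome had 78 clusters, of which 49 were members, at a median distance of 2244062 bp from a gene cluster.

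**Figure D5:**
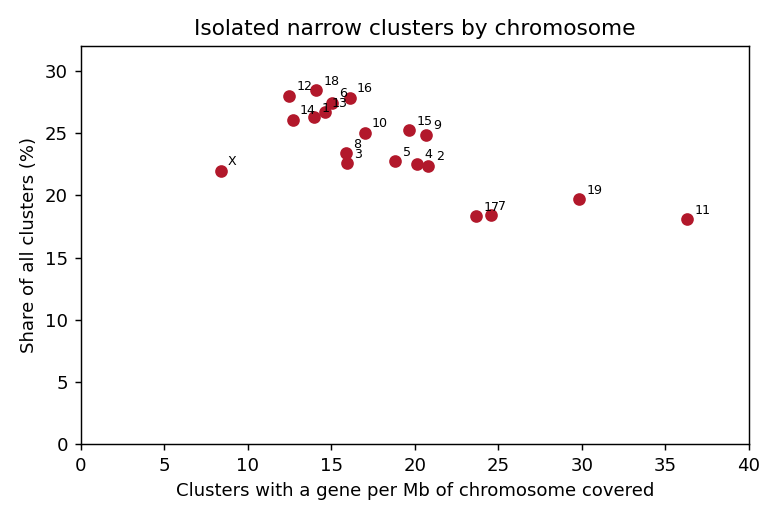
Isolated narrow clusters as a share of all clusters (y axis, %) against clusters with a gene per Mb of chromosome covered (x axis), with 1 labelled point for each of the 20 chromosomes that have at least 100 clusters. Chromosomes 18, 12 and 16 lie highest, between 27.8% and 28.4%, and chromosomes 11, 17 and 7 lowest, between 18.1% and 18.4%.

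In bins of 1 Mb, 2057 of the 2314 bins with any cluster held a member (88.9%), with a median of 6 members per bin and a 90th percentile of 20. The fullest 10% of bins (231) held 35.3% of the members. Spearman's rho between members and gene clusters per bin was 0.72 over the 2314 bins, and 177 bins with 321 members had no gene cluster at all. The fullest bin, on chromosome 2 from 76000000 to 77000000, held 147 members, of which 146 followed Ttn. The bin on chromosome 15 from 101000000 to 102000000, which contains keratin genes, held 117 members beside 224 gene clusters, and those on chromosomes 13, 3 and 4 held 67, 65 and 57, most often after Dsp, Maml3 and Macf1.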

How the data were processed

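CAGE libraries of 8 facial skins were summarised by the authors in 1 deposited table of 85623 rows with a cluster position, a gene symbol (or a dot) and 8 value columns. These 8 were not used because their names match no sample label, so the planned test of lesional against control skin was not run and no depth is given. Per the submitters' processing notes, BWA, HISAT2 and build mm9 were used. Not given in the sources used here were how tags were joined, how genes were given to clusters and whether starts count from 0 or 1. Rows with the same position were counted once, giving 84475 clusters. Distances run from edge to edge, and overlap counts as 0. Runs join members with gaps of at most 1000 bp on either strand. Flanking symbols were matched to RefSeq (GRCm38.p6) by name on the same chromosome, for gene order only. Regions named by rule are the 5 largest runs, the 5 farthest members, the 3 on each side of the 5000 bp limit, and the 3 chromosomes at each end of the range of shares, with their flanking genes. The mixed run, the intervals, the 1 Mb bins, the Y chromosome and the genes ranked by count were chosen after their values were seen. A further marker list is not reported here. The choice of members, the runs and the same-strand upstream class were checked on simulated positions, with members and gene clusters planted on the plus strand only. Minus-strand and opposite-strand cases and the other counts were not checked in this way. Members, lists and measures were chosen with earlier results of these data known. Python 3.11.15, numpy 2.4.6, pandas 2.3.3, scipy 1.17.1 and matplotlib 3.10.9 were used.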

Additional observations from a re-analysis of the deposited data

How the results depend on the processing

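The number of isolated narrow clusters was 19665, and it was 5500 when the distance to a gene cluster had to exceed 50000 bp. Under the other settings (distances over 1000 or 10000 bp, spans under 5 or 20 bp, or gene clusters of the same strand only) it stayed within 1.5 times, from 15870 to 25066. The share of members with another within 1000 bp was 30.4%. It was 12.6% with gaps of at most 100 bp and 50.6% with gaps of at most 5000 bp, 29.3% with neighbours on the same strand only, 28.5% for members over 10000 bp from a gene cluster and 28.2% for spans under 5 bp. The share whose adjacent clusters were both members was 34.5%, and 27.9% for spans under 5 bp. The following alternatives were added after seeing the data. The share with the nearest gene cluster upstream on the same strand was 59.1%, and 57.9% for members over 10000 bp from a gene cluster and 60.5% for spans under 5 bp. It was 58.8% with 1 member per run. The share of same-strand pairs within 1000 bp was 95.7%, and 96.5% for spans under 5 bp. No paired analysis was possible because the columns of values carry names that match no sample label. For the same reason the settings intended for the group comparison (pseudocount, tool, filter, replicates left out) were not run, and what depth limits was not analysed here.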
